A study of Mus musculus with 3 samples.

Results

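The levels of 9 genes of MHC class I antigen presentation were followed in single cells of 3 mouse melanomas, cluster by cluster and tumor by tumor. The 9 genes were the heavy chains H2-K1 and H2-D1, the light chain B2m, the peptide transport and loading genes Tap1, Tap2 and Tapbp, the immunoproteasome subunits Psmb8 and Psmb9, and the transactivator Nlrc5. They were taken as a fixed list of symbols, found by Entrez identifier, and are 9 of the 36530 features of the count tables. All 3 tumors came from mice carrying Tyr.CreER and Braf LSL.V600E among their alleles on a C57BL/6J background. Tamoxifen applied to the skin of adult animals activates Cre under the tyrosinase promoter in the melanocyte lineage. Mutant Braf is expressed only from cells in which Cre has acted. A tdTomato reporter transcript marked tumor cells. The untreated tumor received no drug, the regressed tumor had shrunk on vemurafenib, an oral inhibitor of mutant BRAF, and the progressed tumor had grown again under vemurafenib. Each group was 1 tumor, so no test between groups was possible, and every interval given here is an exact 95% interval that covers counting error only. A difference between tumors cannot be told apart from a difference between the animals or between the libraries.

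Class I molecules display peptides from the cytosol to CD8 T cells and NK cells on nearly all nucleated cells. The proteasome cuts the peptides, and its inducible subunits Psmb8 and Psmb9 replace the constitutive Psmb5 and Psmb6 in immune cells and under interferon. The TAP transporter, made of Tap1 and Tap2, moves the peptides into the endoplasmic reticulum, where tapasin (Tapbp) holds a heavy chain paired with beta-2 microglobulin (B2m) until a fitting peptide binds. Nlrc5 acts on the promoters of many of these genes together with RFX, CREB/ATF and NF-Y factors.

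All but B2m (chr2:122147687-122153082) and Nlrc5 (chr8:94434335-94527272) of these genes lie on chromosome 17 in the GRCm38.p6 annotation of RefSeq. Tapbp (chr17:33919478-33929290) is followed by H2-K1 (chr17:33996012-34000619), and H2-D1 lies at chr17:35263094-35267497. Between the heavy chains are Psmb9 (chr17:34182030-34187330), Tap1 (chr17:34187556-34197225), Psmb8 (chr17:34198195-34201454) and Tap2 (chr17:34204479-34216321). Psmb9 and Tap1 are transcribed away from each other. The 250 bases before the start of each gene were searched on both strands for TGACG, the core of sites for CREB/ATF factors, for ATTGG, the reverse complement of the CCAAT box that NF-Y binds, and for the pair with 20 bases between them. TGACG was in 17.8% and ATTGG in 33.8% of 32851 such windows, and the spaced pair was in 30 of them (0.0913%). The pair was in 3 of the 7 members with a RefSeq window (H2-K1, H2-D1 and B2m) and in 1 of the other 21 pathway genes with a window, H2-M3. Only the exact gap of 20 bases was searched. This gap was set by hand, so the counts describe the windows and do not test for enrichment. H2-Q7 held TGACG 64 and ATTGG 40 bases before its start on the strand of the gene, a slightly closer spacing that was not counted. The 3 stretches are shown because the members that dominate the values below share this arrangement, followed by the Tap1 stretch in which TGACG stands without ATTGG at that distance. Capitals mark TGACG and ATTGG, the motifs do not overlap each other in them, and each stretch is written 5′ to 3′ on the strand of its gene. The start of H2-K1 used here is that of a RefSeq transcript which begins inside the annotated span of the gene, and from a second such start the same pair begins 55 bases before.
H2-K1, chr17:34000359-34000388, minus strand, beginning 41 bases before the start: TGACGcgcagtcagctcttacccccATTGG
H2-D1, chr17:35262993-35263022, plus strand, beginning 101 bases before the start: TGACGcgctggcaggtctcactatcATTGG
B2m, chr2:122147609-122147638, plus strand, beginning 78 bases before the start: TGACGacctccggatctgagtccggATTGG
Tap1, chr17:34187470-34187499, plus strand, beginning 86 bases before the start: TGACGacagagggtcctgccctcaatctgg
The B2m window also held GAAACTGAAA, a match to GAAA, 2 bases and GAAA (the letters of interferon response elements), beginning 139 bases before the start. That motif was in 2.98% of all windows. The whole B2m window, chr2:122147437-122147686 on the plus strand, shows both arrangements in capitals.
B2m window: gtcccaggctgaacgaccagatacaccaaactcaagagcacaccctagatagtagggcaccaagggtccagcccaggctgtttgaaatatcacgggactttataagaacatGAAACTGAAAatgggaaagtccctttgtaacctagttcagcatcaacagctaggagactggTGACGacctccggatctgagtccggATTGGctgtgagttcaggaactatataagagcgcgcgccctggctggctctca

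The deposited tables held 4095 cells of the untreated, 3726 of the regressed and 4849 of the progressed tumor. Their UMI totals were 22202192, 12413268 and 26948940, and the median cell held 4496, 2658 and 4566 UMIs. Levels are given as CPM, the UMIs of a gene for every 1000000 UMIs summed over the cells of a cluster in a tumor. The reads came from the 3′ ends of transcripts and were not scaled by length, so levels were compared between clusters and tumors and not between genes. Of the 25 clusters named by the study, 53 cluster and tumor groups had at least 20 cells. B2m supplied 55.5% of the UMIs of the 9 genes, H2-D1 21.1%, H2-K1 12.3% and Nlrc5 0.220% (525 UMIs in all cells), so a sum over the genes mostly follows B2m. H2-K1 and H2-D1 belong to a family of similar genes, and only uniquely mapping reads had been counted, so their values depend on the stretches they do not share with relatives.

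The cluster names were checked against marker lists. Endothelial markers summed to 4350, 3502 and 3808 CPM in Bloodvessel of the untreated, regressed and progressed tumor. The T and NK cell markers reached 3331 CPM in NK_T of the untreated and 2194 CPM in that of the regressed tumor. In Monocytes2 the dendritic cell list, which includes the class II gene H2-Aa, reached 15148, 11946 and 15878 CPM. The macrophage and monocyte list stood at 2021, 1363 and 2852 CPM there. The name of this cluster does not mention dendritic cells, but the lists hold different genes, so their sums do not settle which cells it held. Keratinocyte markers led in Undefined1 (14040, 9137 and 11972 CPM) and Undefined2 (28440, 24178 and 25820 CPM). Markers of other cells moved with the tumor in nearly every cluster. In Bloodvessel, for example, neutrophil markers stood at 2660, 886 and 6.37 CPM, mast cell markers at 51.4, 466 and 57.3 CPM, erythroid markers at 50.1, 1838 and 0 CPM, and fibroblast markers at 1044, 3694 and 3330 CPM. The part of such RNA in the values below was not tested.

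Macrophages and Monocytes1 were among the 4 clusters with the highest sums of the 9 genes in every tumor. The place of Bloodvessel and of the Stroma clusters depended on the tumor. Bloodvessel was 9th of 18 clusters in the untreated tumor, 5th in the regressed and first in the progressed. Stroma5 was lowest in the untreated and progressed tumor, but Stroma8 (9512 CPM) and Stroma3 (8274 CPM) of the progressed tumor stood above its Monocytes2 (7506 CPM). The clusters had been built by the study from all genes, these included, so levels across clusters are a description. In the untreated tumor the sum ran from 1192 CPM in Stroma5 to 7653 CPM in NK_T, with a median of 3269 CPM over 18 clusters. NK_T also led in the regressed tumor, at 10296 CPM, where the median of 18 clusters was 4954 CPM and the lowest value, 373 CPM, was that of Erythrocytes. In the progressed tumor Bloodvessel led with 11926 CPM (11392 to 12478), its interval overlapping that of Monocytes1 at 11834 CPM (11410 to 12269), and the median of 17 clusters was 6710 CPM. Many neighbours in these orders could not be separated, since 10 of the 18 clusters of the untreated tumor, 11 of 18 in the regressed and 8 of 17 in the progressed had an interval overlapping that of the next lower cluster.

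**Figure D1:**
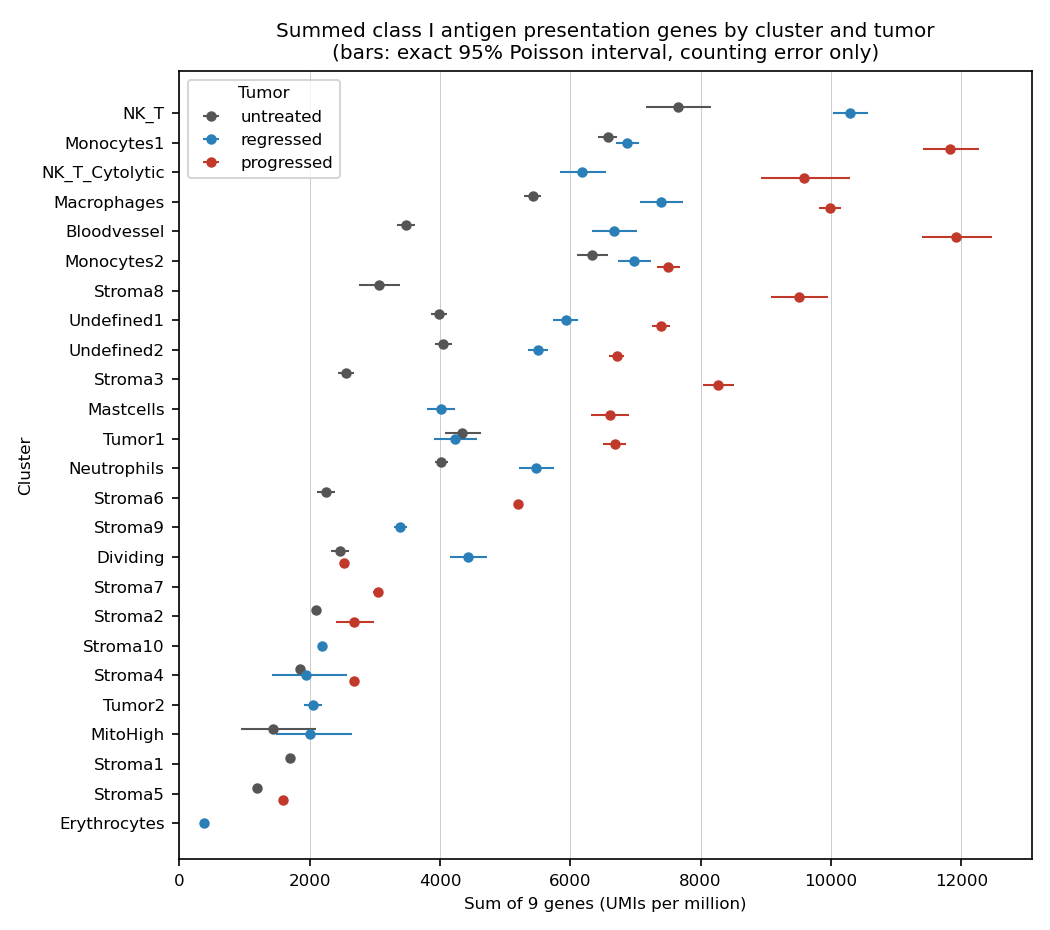
Summed level of the 9 genes (CPM, horizontal axis) in each cluster with at least 20 cells, with a point for each tumor and bars for the exact 95% Poisson interval. Bloodvessel moves from 3476 in the untreated to 6674 (regressed) and 11926 (progressed), while Monocytes2 stays between 6336 and 7506.

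Erythrocytes, which were nearly all from the regressed tumor, were looked at separately. Whether these cells should lack the 9 genes was not tested. Haemoglobin genes took 88.4% of their UMIs, and with these left out of the total the 9-gene sum was 3218 CPM (2778 to 3709), inside the range of the nucleated clusters of that tumor. Cells of this cluster had a median of 8464.5 UMIs, and 85.0% of them held at least 1 UMI of H2-K1, H2-D1 or B2m. After thinning to 1000 UMIs per cell the share was 22.8%, but haemoglobin filled most of the thinned UMIs and the cluster held 7 and 1 cells in the other tumors, so this share is no fair floor for other clusters and nothing below is read against it. In Bloodvessel the thinned shares were 89.2% (79.8 to 95.2) of 74 cells in the untreated, 95.1% (83.5 to 99.4) of 41 in the regressed and 100% (87.7 to 100) of 28 in the progressed tumor. The unthinned share was 100% in each of these groups, at median depths of 9089, 3504.5 and 4089.5 UMIs. Tumor1 gave thinned shares of 95.1%, 93.3% and 96.0%, with overlapping intervals between tumors. Tumor2, found in the regressed tumor, gave 81.0% (72.9 to 87.6) of the 121 cells that had 1000 UMIs or more, and 68.8% of all its 349 cells without thinning, at a median of 768 UMIs, so these shares cover different cells. Stroma5 was the lowest of the clusters followed here, at 55.8% (47.8 to 63.5) in the untreated and 71.8% (68.5 to 75.03) in the progressed tumor.

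H2-K1 and H2-D1 encode the classical heavy chains that carry the peptide. In NK_T, H2-K1 stood at 1124 CPM in the untreated and 1672 CPM in the regressed tumor, the highest value of each. In the progressed tumor its highest value was the 2037 CPM of Bloodvessel. Its lowest values were in Stroma clusters, 94.1 CPM in Stroma5 of the untreated and 132 CPM in Stroma2 of the progressed tumor, and in the 85.9 CPM of Erythrocytes. H2-D1 was highest in Neutrophils of the untreated tumor (1880 CPM), in NK_T of the regressed tumor (3312 CPM) and in Monocytes1 of the progressed tumor (2814 CPM). The balance between the heavy chains differed by cluster. Neutrophils held 0.147 (0.132 to 0.162) H2-K1 UMIs for each of H2-D1 in the untreated and 0.169 (0.139 to 0.205) in the regressed tumor, the lowest ratio in both. In Undefined1 the ratio was 0.863 (0.780 to 0.955) in the untreated, 0.706 (0.638 to 0.781) in the regressed and 1.12 (1.06 to 1.19) in the progressed tumor, and in Undefined2 it went from 0.798 and 0.763 to 1.15 (1.09 to 1.22). These keratin-rich clusters of the progressed tumor were the ones with at least 20 cells in which H2-K1 UMIs outnumbered those of H2-D1 with an interval above 1.

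B2m, the light chain shared by all class I molecules, ran from 789 CPM in Stroma5 to 3901 CPM in NK_T of the untreated tumor. In the regressed tumor Macrophages led with 4113 CPM, and in the progressed tumor Monocytes1 led with 6263 CPM. Heavy-chain UMIs (H2-K1 and H2-D1 together) per B2m UMI were 1.46 (1.39 to 1.55) in Neutrophils of the untreated tumor and 1.88 (1.66 to 2.15) in NK_T_Cytolytic of the regressed tumor. Stroma clusters lay lower, at 0.257 (0.218 to 0.303) in Stroma6 of the untreated and 0.210 (0.152 to 0.284) in Stroma2 of the progressed tumor. In NK_T the ratio was 0.708 (0.613 to 0.816) in the untreated and 1.27 (1.20 to 1.34) in the regressed tumor, since B2m stood at 3901 and 3931 CPM while H2-D1 stood at 1636 and 3312 CPM.

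The transport and loading genes were counted far less often. Tap1, a subunit of the peptide transporter, was highest in Monocytes2 of the untreated (117 CPM) and regressed (120 CPM) tumor, the cluster with dendritic cell markers, and in Monocytes1 of the progressed tumor (173 CPM). Tap2, its partner, reached 140.1 CPM in Bloodvessel and 127 CPM in Undefined1 of the progressed tumor. Tap1 UMIs per Tap2 UMI were 2.31 (1.54 to 3.51), 1.83 (1.19 to 2.85) and 3.31 (1.75 to 6.70) in Monocytes1 of the untreated, regressed and progressed tumor. Some Stroma clusters held fewer, such as 0.271 (0.191 to 0.379) in Stroma4 of the untreated and 0.355 (0.288 to 0.435) in Stroma10 of the regressed tumor. Tapbp, tapasin, was spread more evenly, from 46.4 CPM in Dividing to 246 CPM in Monocytes2 of the untreated tumor among clusters in which it was counted. For Tap1, 17, 17 and 16 of the clusters in the 3 tumors overlapped with their next neighbour, so only the extremes of its order can be read.

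Psmb8 and Psmb9 are inducible proteasome subunits. Their UMIs together were highest in Monocytes2 of the untreated (1014 CPM) and regressed (1050.5 CPM) tumor, and lower in Neutrophils (177 and 232 CPM) than in NK_T (678 and 842 CPM). Psmb8 stood at 782, 853 and 738 CPM in Monocytes2 of the untreated, regressed and progressed tumor, and at 579 and 669 CPM in NK_T of the untreated and regressed tumor. Stroma5 held 37.9 CPM in the untreated and 36.9 CPM in the progressed tumor. Psmb9 had its highest value in Monocytes2 of every tumor (232 CPM, 198 CPM and 222 CPM in the same order), overlapping with the next cluster in the treated tumors, and in Stroma5 it was 6.83 and 9.94 CPM. Nlrc5, the transactivator, was the rarest member. It stood at 41.3 CPM (5 UMIs) in the untreated and 76.2 CPM (41 UMIs) in the regressed tumor in NK_T, its highest values there. Undefined2 led in the progressed tumor with 50.8 CPM (106 UMIs), after 23.9 and 31.3 CPM in the untreated and regressed tumor. In Stroma5 of the untreated tumor Nlrc5 had 0 UMIs, which allows up to 2.28 CPM (3 counts), and in Stroma3 of the untreated tumor 0 UMIs allows up to 4.44 CPM.

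**Figure D2:**
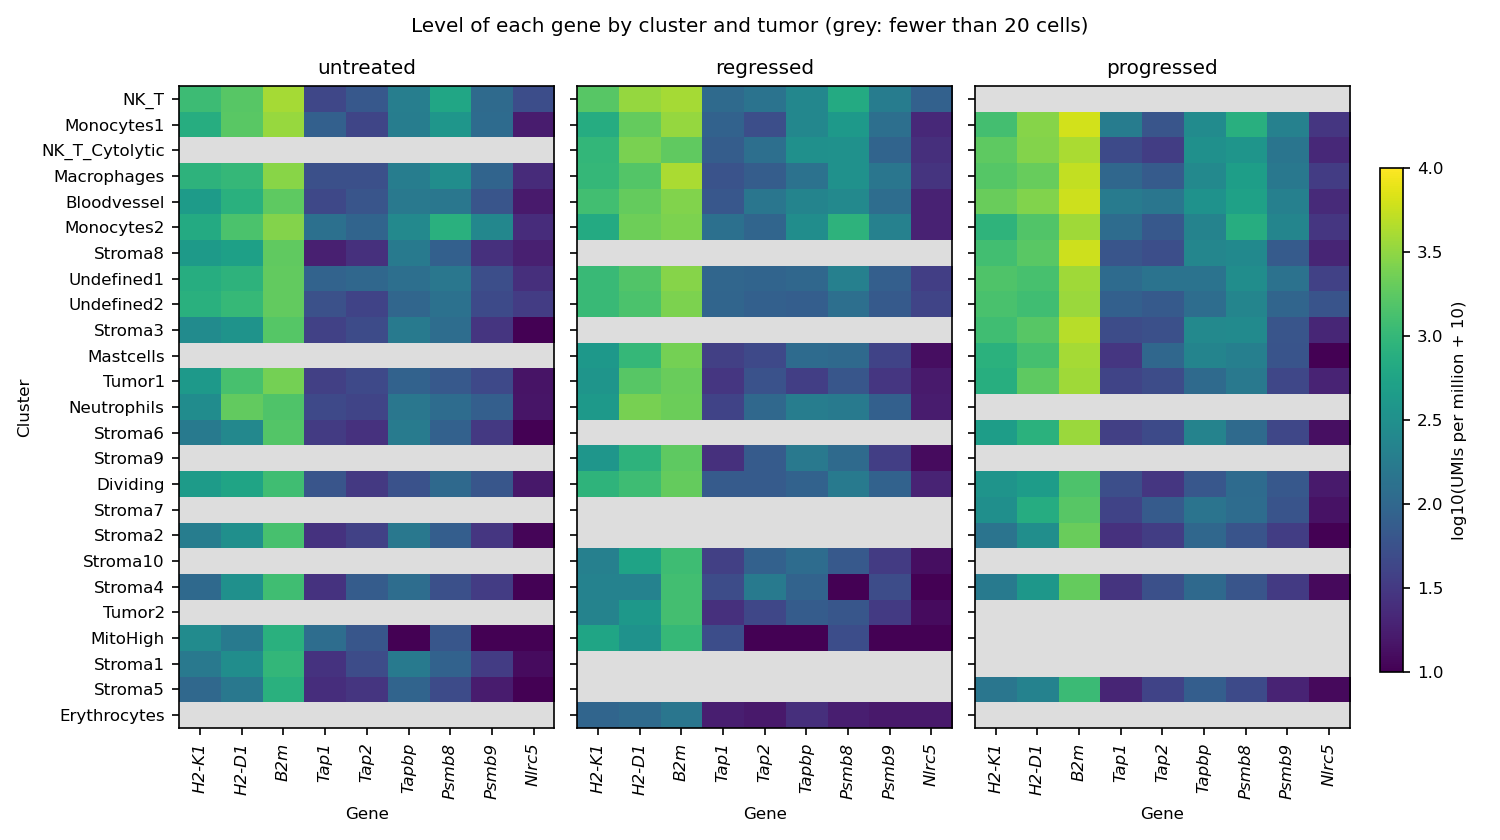
Level of each of the 9 genes (columns) in each cluster (rows) of the untreated, regressed and progressed tumor, as log10(CPM + 10), with grey for groups under 20 cells. The B2m column is the brightest in most rows (not in Neutrophils, nor in NK_T_Cytolytic of the regressed tumor, where H2-D1 is brighter), and Nlrc5 is faint outside NK_T and the Undefined clusters.

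The progressed tumor was compared with the untreated tumor in the 14 clusters with at least 20 cells in both. A value was called higher or lower where the fold was at least 1.5 and its interval excluded 0 on the log2 scale, among genes with at least 20 UMIs over both tumors. Of 113 member values, 54 were called higher and 0 lower, where the same rule called 6.69% of all 123037 gene and cluster values higher and 6.26% lower. The share over all genes was not matched for UMI count, here or below. A larger count gives a narrower interval, and B2m, H2-D1 and H2-K1 are counted often. The median log2 ratio over the 113 values was 0.61, and 91 of them were above 0. Under TMM scaling, which moved the log2 ratios of a cluster by -0.15 to 0.17, the calls were 58 and 0, where 7.89% and 5.29% of all values were called. B2m was called higher in 11 of 14 clusters, H2-K1 in 10 of 14, Psmb8 in 8 of 14, H2-D1 in 7 of 14, Psmb9 in 6 of 13, Tap1 and Tap2 in 4 of 13 each, Tapbp in 3 of 14 and Nlrc5 in 1 of 4.

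Bloodvessel was the cluster in which every tested member was higher, 8 of 8, with a median log2 ratio of 1.78 where all genes of the cluster had -0.03. The rule called 8.4% of all genes tested in Bloodvessel higher. H2-K1 stood at 439 CPM in the untreated, 1236 CPM in the regressed and 2037 CPM in the progressed tumor, and its log2 ratio of progressed to untreated was 2.21 (1.99 to 2.44). H2-D1 stood at 786, 1935 and 2661 CPM, a log2 ratio of 1.76 (1.58 to 1.94). B2m stood at 1805, 2728 and 5883 CPM, a log2 ratio of 1.70 (1.58 to 1.83). The 3 tumors thus kept the same order for the heavy and light chains, with no overlap of the intervals between untreated and progressed. Tap1 was at 34.7, 56.0 and 166 CPM and Tap2 at 51.3, 139.9 and 140.1 CPM, so Tap2 barely differed between the regressed and the progressed tumor. Psmb8 was at 146, 247 and 509 CPM and Psmb9 at 52.6, 107 and 191 CPM. Tapbp, at 155, 215 and 325 CPM, had the smallest of the 8 log2 ratios, 1.06 (0.56 to 1.55). Nlrc5 had 5, 2 and 2 UMIs and was not compared. The comparison rests on 74, 48 and 28 cells, and the dendritic cell list, which includes the class II gene H2-Aa, moved the same way in this cluster, at 24.4, 201 and 484 CPM. Its part in the result was not tested.

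The shift in Bloodvessel was spread over its cells. Among cells with at least 1000 UMIs the summed level of the 9 genes had a median of 3142 CPM (quartiles 2316 and 5357) in the untreated, 6176 CPM (3730 and 7610) in the regressed and 10003 CPM (8584 and 13158) in the progressed tumor. The lower quartile of the progressed tumor lay above the upper quartile of the untreated and of the regressed tumor. After thinning to 1000 UMIs, 28.4% (18.5 to 40.1) of its cells in the untreated, 36.6% (22.1 to 53.1) in the regressed and 60.7% (40.6 to 78.5) in the progressed tumor held a UMI of Tap1, Tap2, Psmb8 or Psmb9. The share was 1.75% in Erythrocytes of the regressed tumor, where haemoglobin limits it in the same way as above. Unthinned, these shares were 82.4%, 66.7% and 92.9%.

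Several clusters that the study named Stroma also stood higher in the progressed tumor, and others hardly differed. Stroma3 moved from 2556 to 8274 CPM in the sum, a log2 ratio of 1.69 (1.61 to 1.78), with 6 of 8 tested members higher. Of all genes tested in Stroma3, 6.43% were called higher. In it H2-D1 was at 335 CPM in the untreated and 1646 CPM in the progressed tumor, a log2 ratio of 2.30 (2.09 to 2.52), and H2-K1 was at 267 and 1204 CPM. Tap1 (28.1 and 39.9 CPM) and Tap2 (38.5 and 43.5 CPM) were not called there. The sum in Stroma8 moved from 3061 to 9512 CPM over 23 and 21 cells, a log2 ratio of 1.64 (1.47 to 1.80), and in Stroma6 from 2253 to 5202 CPM, a ratio of 1.21 (1.12 to 1.30). 1 cell of Stroma8 in the progressed tumor reached 57119 CPM while the median cell stood at 5374 CPM, and with each cell weighted equally the log2 ratio was 1.37. In Stroma5 the sum was 1192 and 1588 CPM and 1 of 8 members, Tap2, was called higher (5.75% of all genes tested there). In Stroma4, with 599 and 826 cells, H2-K1 (95.2 and 157 CPM) and B2m (1197 and 1919 CPM) were the 2 of 8 members called. Of all genes tested in Stroma4, 8.51% were called higher.

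Among myeloid cells, members were called higher in Macrophages and Monocytes1 and none was called in Monocytes2 by total UMIs. In Macrophages the sum stood at 5425, 7394 and 9985 CPM, a log2 ratio of progressed to untreated of 0.88 (0.84 to 0.92). H2-D1 in that cluster was at 981, 1563 and 2019 CPM, B2m at 2932, 4113 and 5332 CPM and Tap1 at 43.8, 48.3 and 90.9 CPM. Tapbp, at 179, 126 and 246 CPM, was not called against the untreated tumor. Monocytes1 had 7 of 8 members higher, where 8.59% of all genes tested in it were. The 7 included Tap1 at 73.9, 77.7 and 173 CPM and Psmb8 at 368, 414 and 772 CPM. Their values in the untreated and regressed tumor were close together and those in the progressed tumor apart. Monocytes2 had 0 of 9 members called, where 4.98% of all genes tested in it were called higher. Its sum was 6336, 6981 and 7506 CPM, with a log2 ratio of 0.24 (0.18 to 0.31). Under TMM 2 of 9 members were called higher in it and the log2 ratio of the sum was 0.41 (0.35 to 0.48). No lymphoid cluster could be compared here, since NK_T had 17 cells in the progressed and NK_T_Cytolytic 15 in the untreated tumor.

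Tumor1, the melanoma cells present in all 3 tumors, gave a sum of 4342, 4230.5 and 6681 CPM over 44, 61 and 156 cells. The log2 ratio of progressed to untreated was 0.62 (0.52 to 0.72), and 3 of 8 members were called higher, where 7.91% of all genes tested in Tumor1 were. These were H2-K1 (408, 358 and 749 CPM), B2m (2357, 2052 and 3768 CPM) and Psmb8 (58.9, 53.0 and 155 CPM). H2-D1, at 1337, 1648 and 1796 CPM, had a log2 ratio of 0.43 (0.24 to 0.61), under the fold that was required. Psmb9 (36.3, 19.9 and 33.8 CPM) and Tap1 (27.2, 19.9 and 31.4 CPM) rested on at most 28 UMIs and were not separated. The sum varied widely among Tumor1 cells of the progressed tumor, with quartiles of 2607 and 8939 CPM around a median of 5044 CPM and single cells from 268 to 36096 CPM. Tumor2, with 349 cells in the regressed tumor and 4 in each of the others, had a sum of 2049.6 CPM (1919 to 2187), under that of Tumor1 in the same library. Tumor markers stood at 3427, 2337 and 4964 CPM in Tumor1 and at 3935 CPM in Tumor2 of the regressed tumor. This list includes transgene transcripts (tdTomato and tWPRE), which stood at 2692, 1509 and 4275 CPM in Tumor1 and at 1308 CPM in Tumor2. The transgene thus made up most of the sum in Tumor1, and the other markers most of it in Tumor2.

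**Figure D3:**
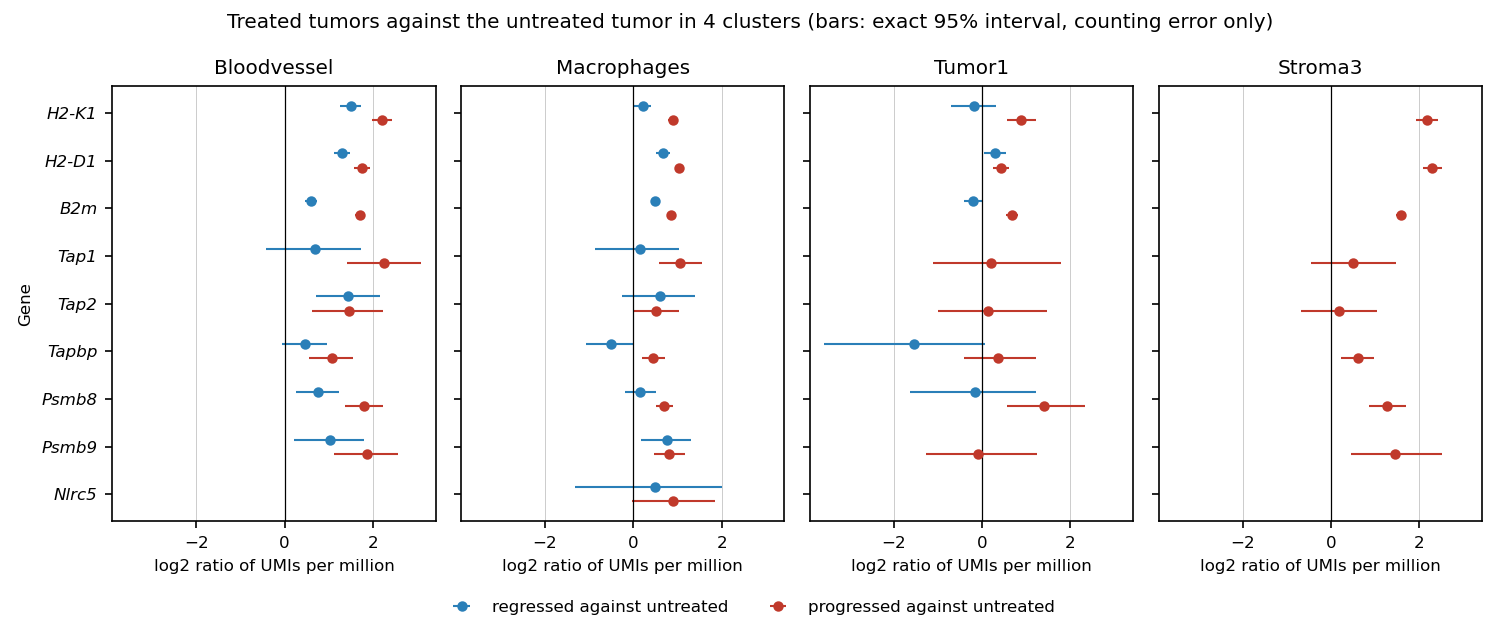
Log2 ratio of the CPM of the regressed and the progressed tumor to those of the untreated tumor for each gene in Bloodvessel, Macrophages, Tumor1 and Stroma3, with exact 95% intervals. In Bloodvessel the progressed values lie between 1.06 (Tapbp) and 2.26 (Tap1), while in Tumor1 several intervals cross 0.

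The regressed tumor was compared with the untreated tumor in 12 clusters, and here the result depended on the scaling. Scaled by total UMIs, 23 of 90 member values were higher and 0 lower, where 14.5% of all 77645 values were higher and 6.96% lower. TMM factors moved the log2 ratios by -0.11 to -1.02, furthest in Neutrophils, and gave 9 higher and 9 lower calls among the 90, where 7.68% of all values were higher and 14.6% lower, so neither TMM count stands out from all genes. Of the 9 lower calls under TMM, 4 were in Neutrophils and 2 in Stroma4, and by gene 4 were of Tapbp. In Bloodvessel 6 of 8 members were higher by total UMIs and 3 of 8 under TMM, where 15.2% of all its genes were higher by total UMIs. H2-K1 gave a log2 ratio of 1.49 (1.26 to 1.73) and Tap2 of 1.45 (0.71 to 2.17) by total UMIs. In NK_T, H2-D1 gave 1.02 (0.80 to 1.24), Tap1 gave 1.60 (0.16 to 3.53) from 33.1 and 100.3 CPM, and B2m gave 0.01 (-0.13 to 0.16). TMM moved the ratios of NK_T by -0.25, which ended the call of Tap1 and left 1 of 9 members called in place of 3. By total UMIs 12.3% of all genes tested in NK_T were higher. NK_T of the untreated tumor held 25 cells and 4 Tap1 UMIs. In Tumor1 0 of 5 tested members were called, where 12.2% of all its genes were higher and 13.8% lower. The 9-gene sum gave -0.04 (-0.18 to 0.11) there. In Dividing 5 of 8 members were called higher, where 15.2% of all its genes were. However, the 75 cells of the regressed tumor in that cluster held markers of T and NK cells at 943 CPM against 155 CPM in the untreated tumor. Once the deepest 5% of cells was left out the log2 ratio of the sum moved from 0.85 to 0.12, and with each cell weighted equally to -0.38. The study set aside clusters with many dividing or mitochondria-rich cells. Dividing and MitoHigh are nevertheless among the 12 clusters counted here and the 18 ordered above in each of these tumors. In MitoHigh mitochondrial genes took 52.4% of the UMIs in the untreated and 49.1% in the regressed tumor. In it 1 member was tested and 0 were called.

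The progressed and regressed tumors, both exposed to vemurafenib, shared 11 clusters. Of 90 member values 30 were higher in the progressed tumor and 5 lower, where 6.76% of all 79661 values were higher and 12% lower. Under TMM the calls were 47 and 4, where 13.9% of all values were higher and 6.51% lower. This comparison shares its samples with the others. H2-D1 was called higher in 0 of 11 clusters by total UMIs and in 5 of 11 under TMM, while H2-K1 and B2m were higher in 6 of 11 each. In Tumor1, Tapbp stood at 26.5 CPM (4 UMIs) in the regressed and 99.0 CPM in the progressed tumor, a log2 ratio of 1.90 (0.49 to 3.81), Psmb8 gave 1.54 (0.52 to 2.79) and H2-K1 gave 1.07 (0.66 to 1.5). In Mastcells, present in these tumors with 106 and 85 cells, 5 of 7 members were higher, with H2-K1 at 392.02 and 804 CPM and B2m at 2325 and 3938 CPM. Of all genes tested in Mastcells, 6.12% were called higher. In NK_T_Cytolytic, H2-K1 (955 and 1779 CPM) and B2m (1828 and 4176 CPM) were higher, and Tap2 (113 and 24.7 CPM, the latter 2 UMIs) was lower. The other 4 lower calls were H2-K1, H2-D1, Tap2 and Psmb8 in Dividing, where the log2 ratio of the sum was -0.81 but -0.13 without the deepest 5% of cells and 0.53 with each cell weighted equally.

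The inducible and constitutive proteasome subunits were then set against each other, since a ratio within the same cells does not depend on the total. In Bloodvessel there were 6.33 (3.83 to 11.1) Psmb8 UMIs for each Psmb5 UMI in the untreated, 7.57 (3.43 to 19.7) in the regressed and 26.7 (8.80 to 132) in the progressed tumor, the last from 80 and 3 UMIs. Psmb9 UMIs per Psmb6 UMI were 0.194 (0.136 to 0.273), 0.377 (0.223 to 0.618) and 0.484 (0.302 to 0.760) in the same cells. Both ratios were thus higher in the progressed tumor than the untreated tumor, although the Psmb8 intervals overlap. In Monocytes2 Psmb8 to Psmb5 was 22.3 (13.3 to 40.2), 20.6 (12.9 to 35.2) and 74.7 (40.4 to 156), while Psmb9 to Psmb6 was 1.01 (0.756 to 1.35), 0.573 (0.435 to 0.752) and 0.974 (0.807 to 1.18). The higher ratio to Psmb5 in the progressed tumor went with fewer Psmb5 UMIs, at 35.1, 41.4 and 9.88 CPM (15, 18 and 10 UMIs), while Psmb8 was not called in this cluster. Tumor1 gave 1.86 (0.689 to 5.50, from 13 and 7 UMIs) for Psmb8 to Psmb5 in the untreated tumor. It gave 1.33 (0.406 to 4.66) in the regressed and 6.74 (4.14 to 11.6) in the progressed tumor, the last overlapping the untreated interval. Psmb9 to Psmb6 in Tumor1 was 0.0762 (0.0321 to 0.156), 0.0526 (0.0105 to 0.162) and 0.0848 (0.0555 to 0.125), with overlapping intervals. In Undefined1 Psmb8 to Psmb5 was 5.88 (3.79 to 9.47), 5 (3.21 to 8.11) and 15.4 (10.6 to 23.3), and in Undefined2 it was 4.03, 2.14 and 9.87. Stroma clusters ranged from 1.63 (1.35 to 1.98) in Stroma10 of the regressed to 13.3 (7.20 to 27.2) in Stroma3 of the progressed tumor for Psmb8 to Psmb5. In Stroma5 of the untreated and progressed tumor this ratio was 1.92 and 2.24, and Psmb9 to Psmb6 was 0.0295 and 0.0349. Psmb5 itself was called lower in 3 and higher in 0 of 13 clusters of the progressed against the untreated tumor, the lower calls being in Monocytes2, Stroma4 and Stroma6. The third such pair, Psmb10 to Psmb7, did not follow Psmb8 to Psmb5 in every cluster. In the same order of tumors it was 2.31, 1.32 and 1.88 in Monocytes2 and 0.8, 1.1 and 1.0 in Tumor1. It was 0.809, 0.553 and 1.56 in Bloodvessel, 0.390, 0.404 and 0.867 in Undefined1, and 0.468, 0.297 and 0.542 in Undefined2.

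**Figure D4:**
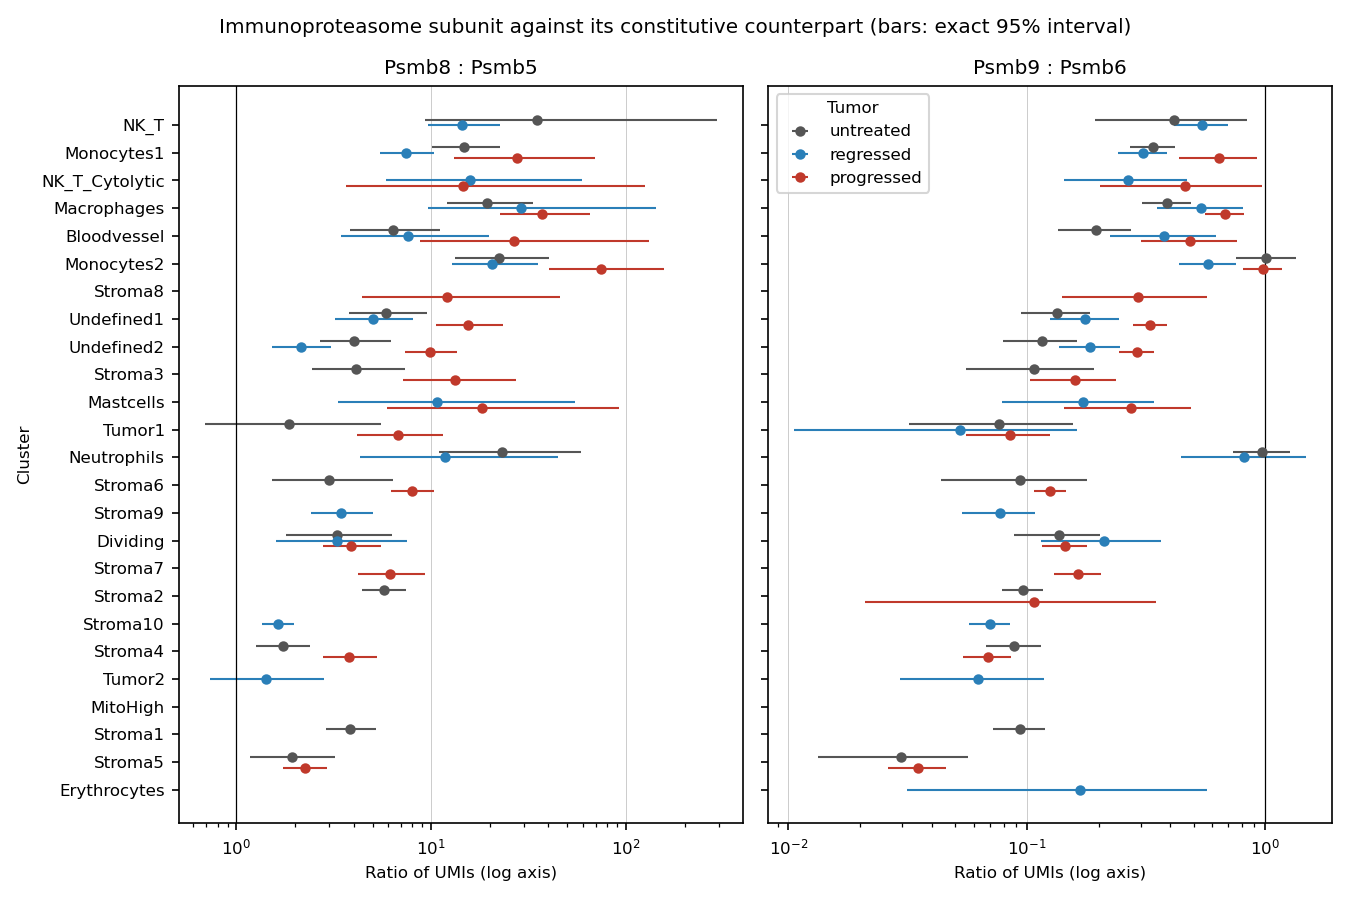
UMIs of Psmb8 per UMI of Psmb5 and of Psmb9 per UMI of Psmb6 (log axes) in clusters where the pair had at least 20 UMIs, by tumor, with exact 95% intervals. Psmb8 to Psmb5 in Monocytes2 lies at 74.7 in the progressed tumor and at 22.3 and 20.6 in the others. In Stroma5 of the untreated and progressed tumor it lies at 1.92 and 2.24, and Psmb9 to Psmb6 lies at 0.0295 and 0.0349.

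The other 25 genes of the pathway did not all move as the members did. Of 296 values 54 were higher and 11 lower in the progressed against the untreated tumor, under TMM 59 and 10. Among all genes 6.69% of values were higher and 6.26% lower, and under TMM 7.89% and 5.29%. The nonclassical class I genes held many of these calls. H2-Q7 was higher in 9 of 11 clusters, though its counts were identical to those of H2-Q9 and cannot be told apart from them, H2-Q6 was higher in 5 of 8, and H2-T23, the ligand of the NK receptor CD94/NKG2A in mice, was higher in 7 of 13. In Bloodvessel, H2-Q7 stood at 11.6, 46.6 and 236 CPM, H2-Q4 at 50.1, 145 and 242 CPM, and Psmb10, the third inducible subunit, at 70.6, 97.9 and 267 CPM. The chaperones Calr and Canx, which fold glycoproteins of all kinds, were called in 0 of 14 clusters in either direction. Irf1, a transcription factor induced by interferon, was higher in 2 and lower in 3 of 14 clusters, with Bloodvessel at 114, 159 and 357 CPM.

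In the regressed against the untreated tumor 68 of 215 values of these genes were higher and 6 lower, and under TMM 36 and 15. Among all genes 14.5% of values were higher and 6.96% lower, and under TMM 7.68% and 14.6%. H2-T23 was higher in 9 of 9 tested clusters by total UMIs, with a median log2 ratio of 2.12, and in 7 of 9 under TMM. The peptide-loading oxidoreductase Pdia3 was higher in 9 of 11 clusters (4 of 11 under TMM) and the interferon gamma receptor chain Ifngr1 in 8 of 11 (4 of 11 under TMM). Against the regressed tumor, the progressed tumor had H2-T23 lower in 9 of 11 clusters (8 of 11 under TMM) and Ifngr1 lower in 7 of 11 (4 of 11 under TMM), and of 218 values 25 were higher and 40 lower. Under TMM this became 43 higher and 23 lower. Among all genes 6.76% of values were higher and 12% lower in this comparison, and under TMM 13.9% and 6.51%. H2-T23 thus mostly had higher values in the regressed than in the progressed tumor, unlike B2m and H2-K1. In Bloodvessel it stood at 28.2, 145 and 95.5 CPM.

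Across the 53 cluster and tumor groups the mean of log2(CPM + 10) over the members was compared with other genes that had a mean of at least 20 CPM. There were 7281 such genes before the members were left out. The most alike were Psme1 (Spearman's rho 0.844), H2-Q6 (0.823) and Psme2 (0.820). Psme1 and Psme2 encode the proteasome activator that interferon induces. The next were Ptk2b, Arrdc1, Cyrib, Dipk1a, Prkch, Clic1 and Nfkb1, from 0.795 to 0.757. Within the fixed pathway list the lowest values were those of Calr (-0.23), Irf1 (-0.092), Pdia3 (-0.050) and Canx (-0.045). Among the members themselves the closest pairs were Psmb8 with Psmb9 (0.911) and H2-K1 with B2m (0.841), and the least close was Tap2 with Tapbp (0.353). The groups share 3 libraries and differ in depth, so these values only describe the tables.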

How the data were processed

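Dissociated cells of 3 tumors were profiled with a droplet kit that tags 3′ ends, 1 library per tumor. The deposited counts were UMIs per gene and cell. The authors aligned reads to GRCm38 (mm10) with GSNAP, counted uniquely mapped sense reads over exons, merged UMIs that differed by 1 base, removed cells under 300 UMIs and named clusters with Seurat 2.2.0, which the submitters' processing notes list. The gene annotation was not given in the sources used here. Doublet removal was not stated and no caller was run, and the cell barcodes were not used here, so barcodes shared between libraries were not counted. The deposited per-cell totals lay below the sums of the UMI tables by 4.42% to 6.09%, and the sums were used. No fold changes or p-values of the authors were used.

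Counts were summed per cluster and tumor and divided by the summed total. Intervals were exact Poisson intervals for levels and exact conditional binomial intervals for ratios and shares, at 95%. Groups under 20 cells were left out. Reads are not independent of the library, so these intervals cover counting error only. Gene and coordinate data came from RefSeq (GRCm38.p6), in which 31049 of 36530 features had a symbol. Python 3.11.15, NumPy 2.4.6, SciPy 1.17.1, pandas 2.3.3 and edgeR 4.0.16 (TMM factors only) in R 4.3.3 were used, and the scripts were tested on simulated data. Genes were named by a fixed rule, the 9 members by role, 25 other pathway genes, and the 10 other genes with the highest rank correlation of log2(CPM + 10). The members, lists and rules were chosen with earlier results of these data known. Protein sequences were not used here, and 1 further allele of the mice and 1 gene of the pathway list are not reported by name.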

Additional observations from a re-analysis of the deposited data

How the results depend on the processing

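No paired analysis was possible because each group was 1 tumor, and leaving out a replicate was not possible for the same reason. Log2 ratios of the 9-gene sum kept their direction in Bloodvessel, Macrophages and NK_T under every alternative run, and those that left the counting interval are given here. For the regressed against the untreated tumor, Bloodvessel (0.94) became 0.68 under TMM, 0.81 without the deepest 5% of cells, 0.70 with equal weight per cell, 1.24 without B2m and 0.76 thinned to 1000 UMIs. Macrophages (0.45) became 0.23 under TMM. NK_T (0.43) became 0.18 under TMM, 0.29 without the deepest 5%, 0.27 with equal weight and 0.76 without B2m. Tumor1 (-0.04) became 0.14 without the deepest 5% and 0.13 without B2m. For the progressed against the untreated tumor, Bloodvessel (1.78) became 1.59 without the deepest 5%, 1.61 with equal weight and 1.66 thinned, and TMM gave 1.003 in Macrophages (0.88) and 0.72 in Tumor1 (0.62). For the progressed against the regressed tumor, Bloodvessel (0.84) became 1.02 under TMM and 0.61 without B2m, Macrophages (0.43) became 0.77 and 0.50, and Tumor1 (0.66) became 0.88 and 0.42, with 0.50 without the deepest 5% and 0.45 thinned. Counts of members higher in the regressed against the untreated tumor (23) became 9 under TMM, 12 of 90 at 2-fold (10.6% of all values), 9 of 51 in clusters with at least 50 cells (17.2%) and 13 of 87 without the deepest 5% (14.0%), shares near those of all genes, and lower calls (0) became 9 under TMM. Against the untreated tumor, the progressed count (54) became 31 at 2-fold, and 1 lower call appeared without the deepest 5%. Against the regressed tumor it became 47 under TMM and 11 at 2-fold from 30, and the lower calls became 3 without the deepest 5% from 5. The clusters with at least 50 cells and the deepest 5% for counts were chosen after seeing the data. In Dividing, leaving out the deepest 5% reversed H2-K1 (-0.047), B2m (-0.16) and Psmb8 (-0.072) of the regressed against the untreated tumor, and Psmb8 (0.088) of the progressed against the regressed tumor. The causes were not tested. Of 291 single-member ratios, 225 stayed inside their interval under TMM and 290 with cells of at least 1000 UMIs. Depth limits Nlrc5 (525 UMIs), Tap1 and Tap2, for which most neighbouring clusters overlap.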
